A study of Mus musculus with 4 samples.

Results

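The hypoxia response and glycolysis genes described here are 39 genes picked by symbol from a table of 25239 gene symbols. The rule named glucose transporters, glycolytic enzymes, regulators of glycolytic flux, lactate transporters, other targets of the hypoxia-inducible factors (HIF) and regulators of the HIF pathway. All 39 were found, and all 39 passed the filter on low counts that left 15522 genes for testing. Expression was measured by poly(A) RNA sequencing in 4 libraries of primary mouse chondrocytes, 2 per genotype. The control cultures were Tiki2 fl/fl, with both copies of Tiki2 floxed. The cKO cultures were Tiki2 fl/fl and also carried Col2a1-Cre/ERT, a tamoxifen-inducible Cre recombinase driven by the promoter of the cartilage collagen gene Col2a1, written as Col2a-CreERT2 in another label. All 4 cultures received 4-hydroxytamoxifen, so the controls share the drug and the floxed alleles but lack the Cre. An effect of the Cre and an effect of Tiki2 loss therefore cannot be told apart, and the Cre can act only in cells in which the Col2a1 promoter is active. The sources used here give neither the age of the mice nor the oxygen level of the cultures. The labels do not say whether replicates came from separate animals. The 2 control libraries differ in sex markers, as given below, so they are not repeats of 1 animal, while for the 2 cKO libraries the spread behind the p-values may be technical.

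In well-oxygenated cells the prolyl hydroxylases encoded by Egln1, Egln2 and Egln3 mark HIF alpha proteins, and the VHL protein then sends them for degradation. When oxygen is scarce the alpha subunit is kept, pairs with ARNT and switches on genes for glucose uptake, glycolysis, lactate export, pH control, mitophagy and blood vessel growth, among them Egln3 itself. Cartilage has no blood vessels, its chondrocytes live largely on glycolysis, and HIF-1 alpha is needed for chondrocytes to survive in the growth plate. HIF is controlled mainly through the stability of its protein, which RNA counts do not measure.

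Libraries held 66750140 to 78873054 counts. The gene targeted by the Cre was Trabd2b (the current symbol of Tiki2). It stood at 436 and 415 CPM (counts-per-million) in controls against 292 and 363 CPM in cKO. Its log2 fold change was -0.38 ± 0.11 (edgeR quasi-likelihood test with Benjamini-Hochberg adjustment, adjusted p = 0.148). Both cKO libraries lay below both controls, as in 24.9% of all genes. DESeq2 called it lower (adjusted p = 0.00743) and limma-voom did not (adjusted p = 0.108). Control replicate 1 had 112185 Xist counts and 0 Ddx3y counts, against 36 to 171 and 11073 to 12085 in the other libraries, so it differs from them in sex markers. Among markers of chondrocytes 9 of 10 fell, against 0.908% of all genes. Their summed level was 23143 and 27074 CPM in controls against 13020 and 9463 CPM in cKO. Summed adipocyte markers, with Lep at 0 in every library, were 202 and 204 CPM in controls against 306 and 500.0 CPM in cKO, and 0 of 7 tested passed the test (edgeR, 5 higher at an unadjusted p under 0.05; 4 higher by DESeq2, 0 by limma-voom). Summed fibroblast markers were 11037 and 10739 CPM in controls against 12934 and 13740 CPM in cKO, and 2 of 8 rose (0.393% of all genes). Dcn, 1 of these 8, had a log2 fold change of -0.24 and did not pass the edgeR test, though DESeq2 called it lower. Sums were 17.96 to 24.97 CPM for macrophage markers (C1qb at 0), 2.85 to 4.29 CPM for endothelial markers (Emcn at 0) and 0.170 to 0.621 CPM for erythroid markers, of which Hbb-bs, Hbb-bt, Hba-a1, Hba-a2 and Slc4a1 were at 0. These marker sums are scaled by library size, and their part in the results below was not tested. In bulk RNA, fewer cells of a type and less RNA per cell cannot be told apart.

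In cKO cultures 9 of the 39 genes fell and none rose at an adjusted p under 0.05. The 9 were the glucose transporter Slc2a1, the glycolysis activator Pfkfb3, the HIF targets Bnip3, Car9, Car12, Ero1l and Higd1a, and the oxygen-sensing hydroxylases Egln1 and Egln3. By the same rule 0.908% of all 15522 genes were lower and 0.393% higher, against 23.1% lower and none higher of these 39. At an unadjusted p under 0.05, 30 of the 39 were lower and 0 higher, where 8.88% of all genes were lower. The DESeq2 test called 26 lower and limma-voom 16, with 4.58% and 1.46% of all genes lower by those tools, and neither called any of the 39 higher. Both cKO libraries lay below both controls in 34 of the 39, against 24.9% of all genes. The groups overlapped for Pfkm, Eno2, Pfkfb4, Hif1a and Epas1. All 39 log2 fold changes were below 0 (49.6% of all genes were), from -1.05 for Ero1l to -0.01 for Hif1a, with a median of -0.32 against 0.00 over all genes. Scaling by library size alone put Pfkm and Hif1a above 0 and left 37 below. The 39 genes together took 2.06% and 2.13% of the counts in controls and 1.84% and 1.81% in cKO.

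**Figure D1:**
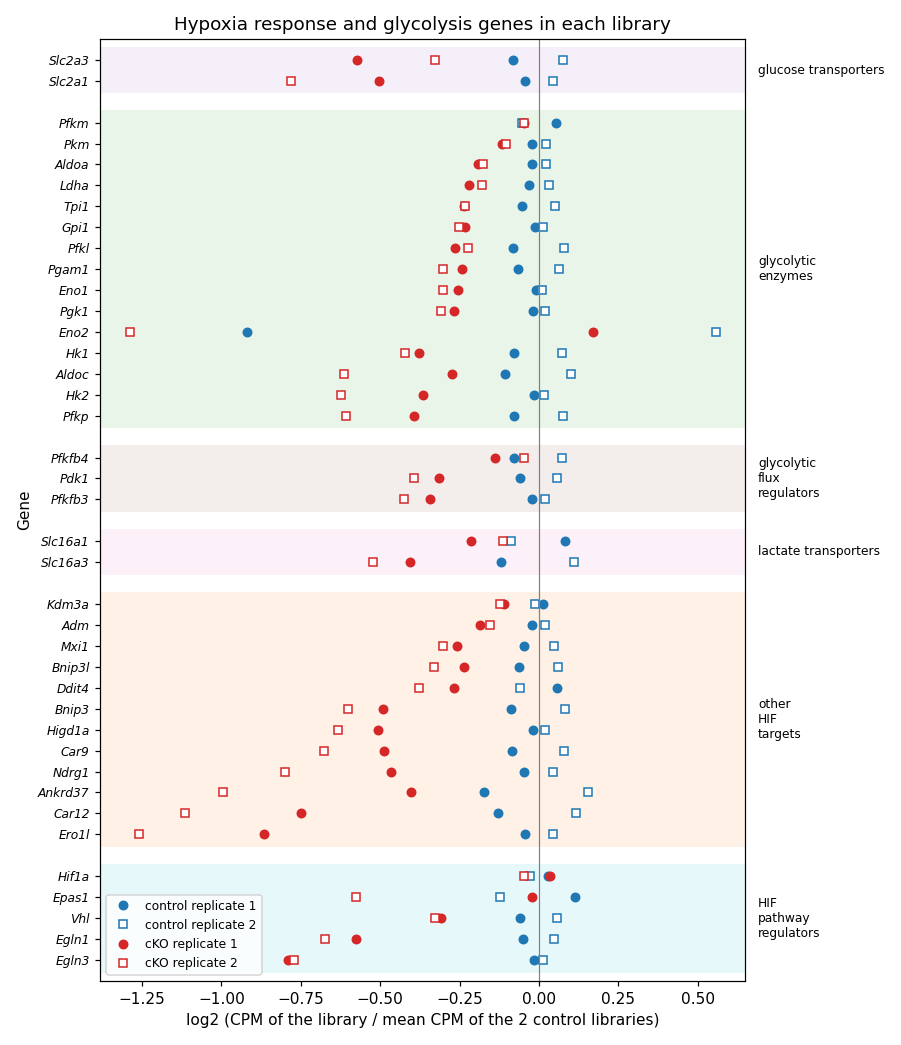
Level of each of the 39 genes in each library, as log2 of its CPM over the mean CPM of the 2 control libraries, with genes grouped by role. Circles are replicate 1 and squares replicate 2, blue for control and red for cKO. In 34 genes both red points lie left of both blue points, and Eno2 differs more within each genotype than between them.

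The calls rest on both control libraries. Without control replicate 1 or without control replicate 2, edgeR called 0 of the 39 (30 and 23 were lower, and none higher, at an unadjusted p under 0.05), with 0.0249% and 0.0812% of all genes lower. Without cKO replicate 1 it called 18, with 2.94% of all genes lower. Without cKO replicate 2 it called 7, with 0.715% of all genes lower, and Slc2a1, Car12, Ero1l, Higd1a, Egln1 and Egln3 were shared with the full fit. Each of these fits leaves 1 library in a genotype, which is then assumed to vary like the other group. Without control replicate 1, control replicate 2, cKO replicate 1 and cKO replicate 2, in that order, 37, 38, 39 and 37 of the 39 fold changes were below 0, and the median ran from -0.38 to -0.27.

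Many of the genes followed the order of the chondrocyte markers across the libraries. The marker sum was highest in control replicate 2, then control replicate 1, cKO replicate 1 and cKO replicate 2. That order held for 23 of the 39 genes and for 8.41% of all genes, among them Slc2a1, Hk1, Hk2, Pgk1, Eno1, Bnip3, Car9, Car12, Ero1l, Higd1a and Egln1. Control replicate 2 lay above control replicate 1 in 33 of the 39 (50.6% of all genes), and cKO replicate 2 below cKO replicate 1 in 28 (49.9%). The adipocyte sum was highest in cKO replicate 2, the library lowest in chondrocyte markers, and the part of either marker list in these differences was not tested.

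The promoters of the genes that fell are shown because HIF is known to bind a short core, written here as ACGTG or GCGTG and on the other strand as CACGT or CACGC. Sequences are RefSeq's on GRCm38.p6, the 250 bases before the start site, read 5′ to 3′ on the gene's strand, with every core in capitals. A CACGTG holds CACGT and ACGTG overlapping and counts as 2 cores. Printed are the 8 of the 9 with a core in these bases. Of these 8 only Pfkfb3 had 2 windows. The one with the most cores before its start is printed, and that start lies inside the gene span given below.
Slc2a1 chr4:119108495-119108744 (plus strand): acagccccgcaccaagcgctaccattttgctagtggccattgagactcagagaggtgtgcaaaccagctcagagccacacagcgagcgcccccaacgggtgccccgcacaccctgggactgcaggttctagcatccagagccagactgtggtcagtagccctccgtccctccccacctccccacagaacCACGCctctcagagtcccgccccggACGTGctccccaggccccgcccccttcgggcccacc
Pfkfb3 chr2:11502091-11502340 (minus strand): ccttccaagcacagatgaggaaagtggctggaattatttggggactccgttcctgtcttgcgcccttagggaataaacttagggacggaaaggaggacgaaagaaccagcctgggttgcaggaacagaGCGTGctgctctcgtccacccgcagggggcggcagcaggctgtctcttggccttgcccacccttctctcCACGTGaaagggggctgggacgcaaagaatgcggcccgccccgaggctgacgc
Bnip3 chr7:138909507-138909756 (minus strand): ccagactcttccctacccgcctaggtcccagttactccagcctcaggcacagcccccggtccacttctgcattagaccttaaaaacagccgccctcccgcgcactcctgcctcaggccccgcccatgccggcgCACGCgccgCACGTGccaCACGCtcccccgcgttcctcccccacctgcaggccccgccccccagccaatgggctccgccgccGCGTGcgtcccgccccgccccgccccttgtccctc
Car9 chr4:43506776-43507025 (plus strand): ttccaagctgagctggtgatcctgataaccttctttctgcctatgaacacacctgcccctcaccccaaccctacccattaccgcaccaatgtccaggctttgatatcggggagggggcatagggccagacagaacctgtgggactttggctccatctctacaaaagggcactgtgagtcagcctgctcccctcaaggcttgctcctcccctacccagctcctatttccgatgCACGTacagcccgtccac
Ero1l chr14:45318573-45318822 (minus strand): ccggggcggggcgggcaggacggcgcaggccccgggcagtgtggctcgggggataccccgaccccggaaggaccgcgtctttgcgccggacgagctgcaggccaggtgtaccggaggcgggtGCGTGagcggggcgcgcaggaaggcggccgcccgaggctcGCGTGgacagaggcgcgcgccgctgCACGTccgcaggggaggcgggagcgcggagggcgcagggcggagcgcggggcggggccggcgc
Higd1a chr9:121857797-121858046 (minus strand): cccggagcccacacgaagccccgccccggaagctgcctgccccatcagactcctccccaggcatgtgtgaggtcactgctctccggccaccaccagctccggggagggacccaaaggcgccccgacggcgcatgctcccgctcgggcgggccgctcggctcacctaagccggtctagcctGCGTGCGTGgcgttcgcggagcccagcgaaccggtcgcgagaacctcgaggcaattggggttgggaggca
Egln1 chr8:124949255-124949504 (minus strand): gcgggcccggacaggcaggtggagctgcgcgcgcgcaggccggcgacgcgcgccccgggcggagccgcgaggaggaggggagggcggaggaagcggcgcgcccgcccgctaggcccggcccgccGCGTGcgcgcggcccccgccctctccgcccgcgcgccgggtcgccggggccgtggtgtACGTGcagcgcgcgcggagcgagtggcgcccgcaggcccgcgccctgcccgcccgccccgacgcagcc
Egln3 chr12:54203875-54204124 (minus strand): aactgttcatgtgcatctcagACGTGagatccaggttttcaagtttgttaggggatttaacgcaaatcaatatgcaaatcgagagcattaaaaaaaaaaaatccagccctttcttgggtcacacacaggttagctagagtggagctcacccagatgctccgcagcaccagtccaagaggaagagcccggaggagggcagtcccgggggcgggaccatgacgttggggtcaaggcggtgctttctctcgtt
Of the 39 genes 35 had a window reaching 250 bases before to 50 after the start, with Ero1l matched through its synonym Ero1a. None was matched for Slc2a3, Bnip3l, Ndrg1 and Epas1. Some genes had several windows, and a gene was counted if any of them held a core on either strand. That held for 30 of these 35 genes (85.7%) and for 7869 of 12086 tested genes with a window (65.1%). Of all genes with a window, 46.7% held a core. The share was 8 of 9 (88.9%) among genes that fell, with no core in Car12, and 22 of 26 (84.6%) among the rest. Cores lay 61 and 36 bases before the start of Slc2a1, 126 and 68 before Egln1, 18 before Car9 and 229 before Egln3. Bnip3 held 5 cores between 117 and 35 bases before its start, and 2 of its cores overlap as CACGTG. A match describes the letters and shows no binding.

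Glucose enters chondrocytes mainly through GLUT1, the transporter encoded by Slc2a1 (ENSMUSG00000028645.11, mm10 chromosome 4, 119108711 to 119137983, plus strand). It stood at 624 and 664 CPM in control replicates 1 and 2 and at 455 and 375 CPM in cKO replicates 1 and 2. Both cKO libraries lay below both controls, and replicate 2 was the lower of the cKO pair. The mean fell 1.55-fold, from 644 ± 28.2 to 415 ± 56.6 CPM (SD, n = 2), or -0.64 ± 0.10 in log2 units (edgeR adjusted p = 0.0472). GLUT3, a high-affinity transporter encoded by Slc2a3, was far less abundant, at 10.1 and 11.2 CPM in controls against 7.17 and 8.50 CPM in cKO. Its groups did not overlap, but it missed the threshold (log2 fold change -0.45 ± 0.15, edgeR adjusted p = 0.213). Per exon length, Slc2a1 made up 98.9% to 99.2% of the reads of this pair in the 4 libraries.

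None of the 15 glycolytic enzymes passed the edgeR threshold, although all 15 fold changes were below 0 with the main scaling. At an unadjusted p under 0.05, 12 of the 15 were lower, DESeq2 called 11 lower, limma-voom 5, and no tool called any higher. In 13 of the 15 both cKO libraries lay below both controls. Over all genes 8.88% were lower at that unadjusted p, 4.58% by DESeq2 and 1.46% by limma-voom. Both cKO libraries lay below both controls in 24.9% of all genes. The median log2 fold change was -0.27, from -0.50 for Pfkp to -0.05 for Pfkm, and -0.21 with library sizes alone. The enzymes as a whole took 1.42% and 1.48% of all counts in controls and 1.299% and 1.303% in cKO.

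The 4 enzymes with the smallest p-values were Hk1, Eno1, Pfkp and Pgk1, followed by Hk2. Hexokinase 1 (Hk1), which traps glucose as its phosphate, stood at 403 and 447 CPM in controls against 327 and 318 CPM in cKO (log2 fold change -0.40 ± 0.07, edgeR adjusted p = 0.0594). Its inducible relative Hk2 stood at 227 and 232 CPM in controls against 178 and 149 CPM in cKO (log2 fold change -0.49, edgeR adjusted p = 0.0676). Neither gene's groups overlapped, and Hk2 differed more between the cKO libraries than between the controls. The platelet-type phosphofructokinase Pfkp stood at 149.96 and 167 CPM in controls against 121 and 104 CPM in cKO (log2 fold change -0.50 ± 0.09, edgeR adjusted p = 0.0642). It shares 748 exon bases, 5.58% of its exons, with Pitrm1 on the other strand, and their reads cannot be told apart without strand. Phosphoglycerate kinase Pgk1, an X-linked enzyme that makes ATP, stood at 1238 and 1270.0 CPM in controls against 1043 and 1012 CPM in cKO (log2 fold change -0.29 ± 0.05, edgeR adjusted p = 0.0670). Enolase 1 (Eno1), which makes phosphoenolpyruvate, stood at 2614 and 2652 CPM in controls against 2207 and 2133 CPM in cKO (log2 fold change -0.28 ± 0.05, edgeR adjusted p = 0.0601). Both of these abundant genes were lower in both cKO libraries by more than the libraries of a genotype differed. Eno1 has a near copy, Eno1b, with 99.5% identity over 1736 bases and 9971 to 11272 counts per library, and the sum of the pair differed by -0.28 on the log2 scale.

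The other enzymes had larger p-values. The glucose-6-phosphate isomerase Gpi1 stood at 703 and 714 CPM in controls against 603 and 595 CPM in cKO (log2 fold change -0.24). Triosephosphate isomerase Tpi1 stood at 830 and 893 CPM against 731 and 734 CPM (-0.23), and the mutase Pgam1 at 778 and 850 CPM against 687 and 660 CPM (-0.27). The aldolase Aldoa stood at 1455 and 1499 CPM against 1293 and 1308 CPM (-0.18). All 4 had cKO libraries below both controls. Aldoc, a much rarer aldolase, stood at 26.7 and 30.9 CPM in controls against 23.8 and 18.8 CPM in cKO (-0.43). Lactate dehydrogenase A (Ldha), which regenerates NAD+ by making lactate, stood at 1984 and 2071 CPM in controls against 1742 and 1792 CPM in cKO (-0.20). Pyruvate kinase Pkm, the most abundant of the 39 per exon length, stood at 3572 and 3679 CPM in controls against 3343 and 3373 CPM in cKO (-0.11). Its groups did not overlap, yet the difference was small. The liver-type phosphofructokinase Pfkl stood at 376 and 421 CPM against 332 and 342 CPM (-0.24). The muscle-type Pfkm, which differed least of the 15, stood at 71.0 and 66.0 CPM in controls and 66.3 CPM in each cKO library, with a log2 fold change of -0.05 and a 95% interval of -0.20 to 0.11. Its sign turned with library sizes alone (0.02) and without control replicate 1 (0.01). The adjusted p-values of these 9 enzymes ran from 0.0930 for Gpi1 to 0.770 for Pfkm (edgeR).

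Regulators of 2 kinds steer carbon through this route: bifunctional enzymes that set the level of fructose 2,6-bisphosphate, the activator of phosphofructokinase, and a kinase that closes the mitochondrial entry of pyruvate. Pfkfb3 (ENSMUSG00000026773.19, mm10 chromosome 2, 11471433 to 11554077, minus strand), the kinase-dominant form of the bifunctional enzyme, stood at 323 and 332 CPM in controls against 259 and 244 CPM in cKO. The groups did not overlap, and the libraries of a genotype lay close together. The mean fell from 328 ± 6.55 to 251 ± 10.2 CPM (SD, n = 2; log2 fold change -0.38 ± 0.06, edgeR adjusted p = 0.0491). This call was the closest to the threshold of the 9 and was lost with library sizes alone (adjusted p = 0.0590), with DESeq2's size factors in edgeR (0.0506) and without cKO replicate 2 (0.0981). Its relative Pfkfb4 was rare, at 7.66 and 8.50 CPM in controls against 7.35 and 7.81 CPM in cKO, with overlapping groups (log2 fold change -0.09, edgeR adjusted p = 0.813). Pyruvate dehydrogenase kinase 1 (Pdk1), which blocks entry of pyruvate into the citric acid cycle, stood at 219 and 237 CPM in controls against 183 and 173 CPM in cKO (log2 fold change -0.35 ± 0.07, edgeR adjusted p = 0.0676). Its groups did not overlap, and it missed the threshold.

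Lactate leaves cells through the monocarboxylate transporters MCT4 and MCT1. MCT4, the export form encoded by the HIF target Slc16a3, stood at 318 and 374 CPM in controls against 261 and 241 CPM in cKO (log2 fold change -0.46 ± 0.09, edgeR adjusted p = 0.0766). MCT1, encoded by Slc16a1, stood at 246 and 219 CPM in controls against 200.3 and 215 CPM in cKO (log2 fold change -0.16 ± 0.08, edgeR adjusted p = 0.354). Neither gene's groups overlapped, but for Slc16a1 the lower control was close to the higher cKO library. By edgeR 0 of these 2 genes were called, 1 was lower at an unadjusted p under 0.05, and DESeq2 called 1 and limma-voom 0. Over all genes 0.908% were called lower by edgeR, 8.88% were lower at that unadjusted p, and DESeq2 called 4.58% lower and limma-voom 1.46%.

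Among the 12 other HIF targets 5 fell, and in all 12 both cKO libraries lay below both controls. DESeq2 called 8 lower and limma-voom 6. Over all genes 0.908% fell by edgeR, 4.58% by DESeq2 and 1.46% by limma-voom, and 24.9% had both cKO libraries below both controls. Their median log2 fold change was -0.56. Ero1l (ENSMUSG00000021831.9, mm10 chromosome 14, 45283087 to 45318771, minus strand), an oxidase that drives disulfide formation in the endoplasmic reticulum, differed most of the 39. It stood at 764 and 811 CPM in controls against 432 and 329 CPM in cKO, and both cKO libraries were far below both controls. The mean fell 2.07-fold, from 787 ± 33.5 to 381 ± 72.6 CPM (SD, n = 2; log2 fold change -1.05 ± 0.13, edgeR adjusted p = 0.0300). Its 95% interval ran from -1.36 to -0.74.

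The membrane carbonic anhydrases Car9 and Car12 turn carbon dioxide into bicarbonate and protons at the cell surface and so set the pH around the cell. Car12 (mm10 chromosome 9, 66713686 to 66766845) stood at 86.1 and 102 CPM in controls against 55.9 and 43.4 CPM in cKO. Its mean fell 1.89-fold, from 94.0 ± 11.3 to 49.7 ± 8.84 CPM (SD, n = 2; log2 fold change -0.92 ± 0.14, edgeR adjusted p = 0.0434). Car9 stood at 147 and 164 CPM in controls against 111 and 97.2 CPM in cKO. For both, control replicate 2 was highest and cKO replicate 2 lowest, and the groups did not overlap. The mean of Car9 fell from 155 ± 12.5 to 104 ± 9.68 CPM (SD, n = 2; log2 fold change -0.58 ± 0.09, edgeR adjusted p = 0.0434), and the call was lost without cKO replicate 2 (adjusted p = 0.0585).

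Bnip3 and Higd1a, whose proteins act at mitochondria, fell. Bnip3, a receptor that marks mitochondria for mitophagy, stood at 449.7 and 506 CPM in controls against 340.3 and 315 CPM in cKO. Its mean fell from 478 ± 40.1 to 328 ± 17.97 CPM (SD, n = 2; log2 fold change -0.55 ± 0.08, edgeR adjusted p = 0.0417), a call lost without cKO replicate 2 (adjusted p = 0.0663). Higd1a, a small protein of the inner mitochondrial membrane, stood at 163 and 168 CPM in controls against 117 and 107 CPM in cKO. Both genes had cKO libraries well apart from the controls, with Higd1a the tighter within each genotype (log2 fold change -0.57 ± 0.06, edgeR adjusted p = 0.0289). Bnip3l, the related mitophagy receptor, stood at 191 and 208 CPM in controls against 169.6 and 159 CPM in cKO, a smaller difference that missed the threshold (log2 fold change -0.28, edgeR adjusted p = 0.112).

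Of the remaining 6 targets none passed the edgeR threshold. Ndrg1, a gene induced by low oxygen and by differentiation, stood at 269 and 286 CPM in controls against 201 and 159.5 CPM in cKO (log2 fold change -0.62, edgeR adjusted p = 0.0632). It was called by DESeq2, by limma-voom and by edgeR without cKO replicate 1 and without cKO replicate 2. Ankrd37, an ankyrin-repeat protein, was scarce, at 3.65 and 4.59 CPM in controls against 3.12 and 2.07 CPM in cKO, and its 95% interval reached above 0 (log2 fold change -0.67, edgeR adjusted p = 0.314). It shares 22.7% of its exon bases with Lrp2bp and 57 bases with the more abundant Ufsp2, both on the other strand. The mTORC1 inhibitor Ddit4 stood at 117 and 108 CPM against 93.6 and 86.6 CPM (-0.32), and the MYC antagonist Mxi1 at 38.4 and 41.1 CPM against 33.3 and 32.3 CPM (-0.28). The vasodilator peptide Adm stood at 166 and 171 CPM against 148 and 151 CPM (-0.17), and the histone demethylase Kdm3a at 90.9 and 89.2 CPM against 83.5 and 82.6 CPM (-0.12). These 4 differed little although their groups did not overlap, with adjusted p-values from 0.0923 to 0.351 (edgeR).

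Among the 5 regulators, the oxygen sensors fell while the RNA of the HIF alpha subunits did not pass the test. Egln3 (ENSMUSG00000035105.5, mm10 chromosome 12, 54178981 to 54203860, minus strand), a prolyl hydroxylase that is itself induced by HIF, stood at 55.9 and 57.0 CPM in controls against 32.7 and 33.1 CPM in cKO. The libraries of a genotype were nearly equal and the groups were far apart. Its mean was 1.72-fold lower in cKO (log2 fold change -0.78 ± 0.07, edgeR adjusted p = 0.0264), rank 10 of 15522 genes by p-value. Egln1 (ENSMUSG00000031987.6, mm10 chromosome 8, 124908587 to 124949324, minus strand), the main oxygen sensor that marks HIF-1 alpha, stood at 233 and 249 CPM in controls against 162 and 151 CPM in cKO. Its mean fell 1.54-fold, from 241 ± 11.6 to 156 ± 7.57 CPM (SD, n = 2; log2 fold change -0.62 ± 0.07, edgeR adjusted p = 0.0289). Neither gene's groups overlapped. Vhl, which recognises the hydroxylated alpha subunit, stood at 49.5 and 53.8 CPM in controls against 41.6 and 41.1 CPM in cKO (log2 fold change -0.32 ± 0.07, edgeR adjusted p = 0.108).

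Hif1a, the alpha subunit that responds to acute loss of oxygen, stood at 1916 and 1841 CPM in controls against 1924 and 1817 CPM in cKO. The groups overlapped fully, with the 2 cKO values outside the control pair on either side. Its log2 fold change was -0.01, with a 95% interval of -0.14 to 0.13 (edgeR adjusted p = 0.971), and it was above 0 with library sizes alone (0.06) and without control replicate 1 or cKO replicate 2 (0.02 and 0.04). Epas1, which encodes HIF-2 alpha, stood at 50.4 and 42.8 CPM in controls against 45.8 and 31.2 CPM in cKO. The first cKO library lay between the controls and the second below them (log2 fold change -0.27 ± 0.18, edgeR adjusted p = 0.513). Without cKO replicate 1 the value was -0.58 (edgeR adjusted p = 0.0468).

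**Figure D2:**
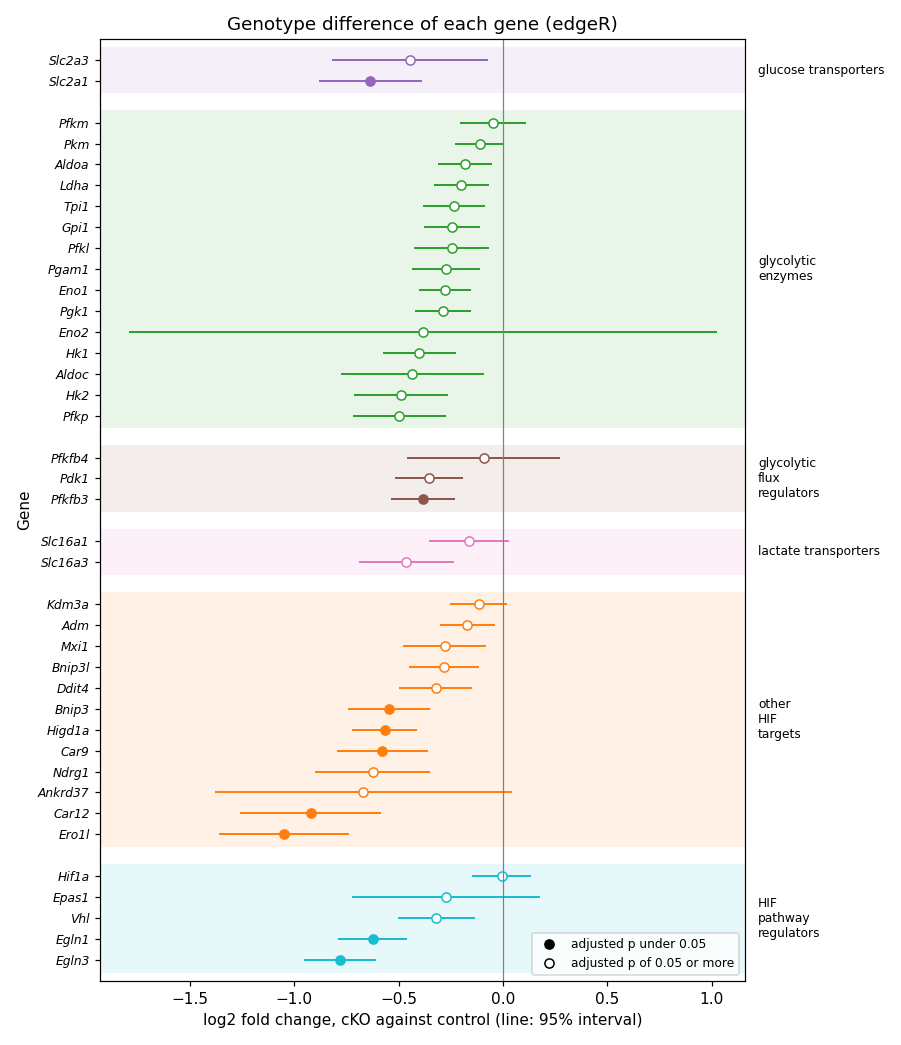
Log2 fold change of each gene between cKO and control, with its 95% interval from edgeR, grouped by role. Filled points have an adjusted p under 0.05. The 9 filled points lie between -1.05 (Ero1l) and -0.38 (Pfkfb3), no enzyme is filled, and Hif1a lies at -0.01.

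Side by side, the roles differed in the size of their medians. The median log2 fold change was -0.27 for the 15 enzymes, -0.56 for the 12 other HIF targets and -0.32 for the 5 regulators. With Egln1 and Egln3 counted as the HIF targets they also are, 7 of 14 targets fell and their median was -0.57. For the 22 genes of the glucose to lactate route (both kinds of transporter, enzymes and flux regulators) 2 fell and the median was -0.28. Of all genes tested 0.908% fell. Without cKO replicate 2 the median of the other targets was -0.43, and that of the enzymes -0.24. These are descriptions, and the difference between the roles was not tested.

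Further genes of the same pathways, listed with earlier results known, were read beside the 39. Among 37 tested further HIF targets 6 fell and 0 rose (0 higher at an unadjusted p under 0.05, and by DESeq2 or limma-voom), with 33 below 0 and a median of -0.27. Lower calls in this list numbered 19 by DESeq2 and 13 by limma-voom, and 23 genes were lower at an unadjusted p under 0.05. Over all genes, 0.908% were called lower by edgeR, 4.58% by DESeq2 and 1.46% by limma-voom. At an unadjusted p under 0.05, 8.88% were lower, and 49.6% were below 0. The 6 edgeR calls were lost without control replicate 1 and without control replicate 2. With library sizes alone 4 of the 37 were called lower, against 123 of all 15522 genes. Vegfa, the growth factor for blood vessels, stood at 473 and 449 CPM in controls against 342 and 319 CPM in cKO (log2 fold change -0.48 ± 0.07, edgeR adjusted p = 0.0373). Gbe1 and Gys1, which branch and extend glycogen, fell by 0.70 and 0.43 in log2 units (edgeR adjusted p = 0.0289 and 0.0434). Tfrc, the transferrin receptor, fell by 0.53, the collagen lysyl hydroxylase Plod2 by 0.44 and the repressor Bhlhe41 by 0.55 (edgeR adjusted p = 0.0289, 0.0375 and 0.0463). In 28 of the 37, these 6 among them, both cKO libraries lay below both controls (24.9% of all genes), in 1 both lay above and in 8 the groups overlapped.

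The other further lists had medians near 0. Of 21 further glycolysis genes none was called by edgeR, DESeq2 or limma-voom (edgeR, 1 lower and 5 higher at an unadjusted p under 0.05), and the median was 0.01. Those with the smallest p-values were above 0: Pdk4, a kinase of fasting metabolism, at 0.75 ± 0.21 (edgeR adjusted p = 0.148), the insulin-responsive transporter Slc2a4 at 1.35 ± 0.41 (0.170), Pdk2 at 0.31 (0.178) and the muscle enolase Eno3 at 0.40 (0.196). Of 20 further HIF pathway components edgeR called none (1 lower and 1 higher at an unadjusted p under 0.05; DESeq2 1 and 1, limma-voom 0), with a median of 0.02. Arnt, the partner of the alpha subunits, stood at 108 and 106 CPM in controls and 112 CPM in each cKO library (log2 fold change 0.07 ± 0.05, edgeR adjusted p = 0.585). The ubiquitin ligase Siah2 had -0.60 ± 0.11 (edgeR adjusted p = 0.0676) and Arnt2 0.59 ± 0.12 (0.0798). Hif3a was near absent, with 7 to 30 counts per library.

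Downstream of pyruvate, 25 genes of pyruvate dehydrogenase and the citric acid cycle had a median of 0.06, with 18 above 0. EdgeR and limma-voom called none of them (edgeR, 1 lower and 2 higher at an unadjusted p under 0.05), and DESeq2 called 1 higher. The phosphatase Pdp1, which reopens pyruvate dehydrogenase, was not called, with a fold change of 0.54 ± 0.11 in log2 units (edgeR adjusted p = 0.0858). The 9 tested genes of the pentose phosphate pathway had a median of 0.02, with 0 called by the 3 tools and 1 lower at an unadjusted p under 0.05 by edgeR.

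**Figure D3:**
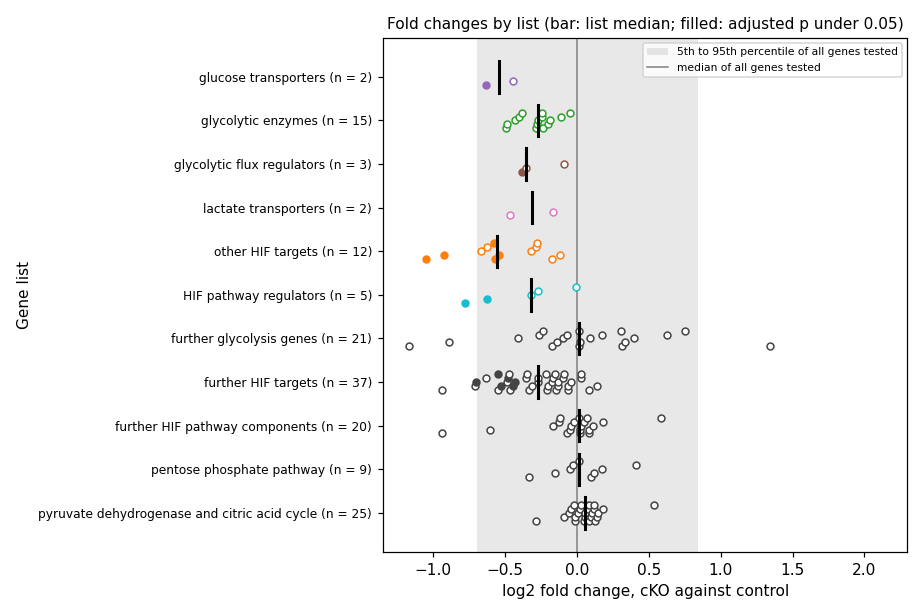
Log2 fold change of every tested gene of each role and further list, with black bars for list medians and filled points for an adjusted p under 0.05. The grey band spans the 5th to 95th percentile of all genes tested. The medians of the 6 roles and of the further HIF targets lie left of the all-gene median, from -0.56 to -0.27, and those of the other 4 lists between 0.01 and 0.06.

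Per exon length, 6 of the 15 glycolytic enzymes were the most abundant of the 39 in controls. Their mean RPKM (CPM per kilobase of exon) was 725 for Pkm, 613 for Ldha, 559 for Pgk1, 507 for Aldoa, 489 for Eno1 and 411 for Pgam1. Hif1a followed at 319 and Tpi1 at 313, then Bnip3 at 211, Slc2a1 at 184 and Ero1l at 149. Slc2a3 was lowest, at 1.47. Neighbours such as Aldoa and Eno1, at 507 and 489, or Hif1a and Tpi1, lay close together, and the order of such pairs was not tested. Exon length here joins all annotated exons of a gene, and the order depends on it. By CPM the control means were 2633 for Eno1, 2028 for Ldha, 1878 for Hif1a, 1477 for Aldoa and 1254 for Pgk1.

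**Figure D4:**
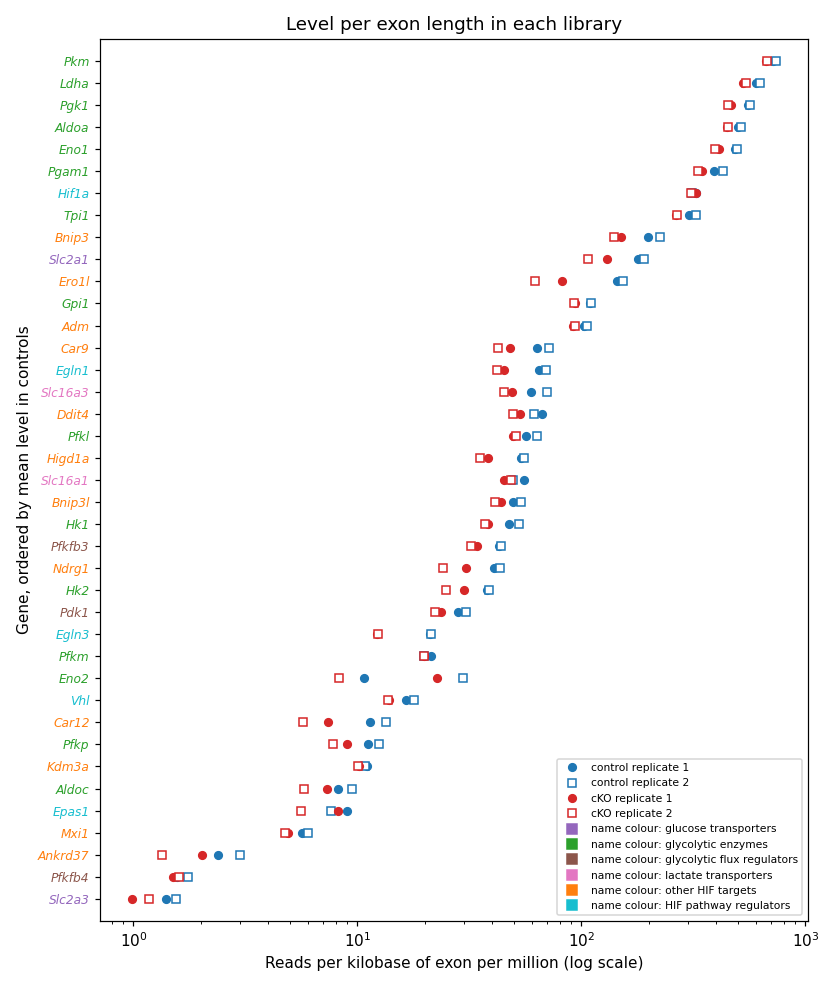
Level per exon length of each gene in each library, in RPKM on a log axis, ordered by the control mean, with name colours for roles. Control means run from 1.47 (Slc2a3) to 725 (Pkm). Within most genes the red cKO points lie left of the blue control points.

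Within families the balance of isozymes differed between genotypes in some cases. These shares are per exon length, and the families were read after their values were seen. Pdk1 made up 53.8% and 53.6% of the 4 pyruvate dehydrogenase kinases in controls and 49.0% and 48.5% in cKO, while Pdk4 made up 2.11% and 1.85% against 4.28% and 3.41%. Egln1 made up 62.3% and 63.9% of the 3 HIF prolyl hydroxylases in controls and 59.6% and 57.4% in cKO, and Egln3 20.2% and 19.7% against 16.2% and 16.96%. Egln2, which did not pass the test (log2 fold change 0.05, edgeR adjusted p = 0.776), took 17.5% and 16.4% in controls and 24.2% and 25.7% in cKO. Hk2 stood at 44.6% and 42.5% of the hexokinase pair against 43.8% and 40.1%, and its ranges overlapped. Hif1a made up 97.3% to 98.2% of HIF alpha reads in all 4 libraries.

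Enolase 2 (Eno2), the neuronal form, did not follow genotype. It stood at 50.3 and 140.0 CPM in controls against 107 and 38.9 CPM in cKO, so control replicate 1 and cKO replicate 2 were low and the other pair high. Its log2 fold change was -0.38 ± 0.58 (edgeR adjusted p = 0.797), and it turned to 0.54 without control replicate 2 and 0.17 without cKO replicate 2. Summed skeletal muscle markers split the libraries the same way, at 4.63 and 25.9 CPM in controls against 48.6 and 10.8 CPM in cKO, and their part in this was not tested. Gapdh, the dehydrogenase of glycolysis that lies near Eno2 on chromosome 6, ran opposite, at 205 and 47.8 CPM in controls against 70.8 and 241 CPM in cKO (log2 fold change 0.31 ± 0.75, edgeR adjusted p = 0.885). Gapdh has 78 near copies in the genome, and the sources used here do not say how reads shared with them were counted. Copies among the counted genes held 114% of Gapdh's own counts, most of them in Gm12070 (99.9% identity). Gm12070 stood at 172.9 and 180.4 CPM in controls against 142.5 and 143.7 CPM in cKO (log2 fold change -0.30, edgeR adjusted p = 0.0621). It did not show the split. The sum of Gapdh and Gm12070 differed by -0.017 on the log2 scale and was still higher in control replicate 1 and cKO replicate 2. The level and fold change of Gapdh alone therefore depend on how shared reads were assigned.

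Among 25 genes of 5 CPM or more from 150 kb before to 450 kb after Eno2, 4 (16%) differed over 2-fold within both genotypes in the same pair of libraries. Over all 10871 genes of that level, 13 (0.12%) did. The 4, chosen after their values were seen, were Eno2, Gapdh, C1s2 and Pianp. The window reaches just past C1s2, at -135 kb, and Gapdh, at 402 kb. The 16% therefore depends on these bounds and is no test against the 0.12%. C1s2 stood at 0.872 and 23.9 CPM in controls against 25.0 and 3.78 CPM in cKO, and Pianp at 0.199 and 10.7 CPM against 13.5 and 1.69 CPM. Tpi1, which lies between Eno2 and Gapdh, did not show this split. No cause was tested.

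**Figure D5:**
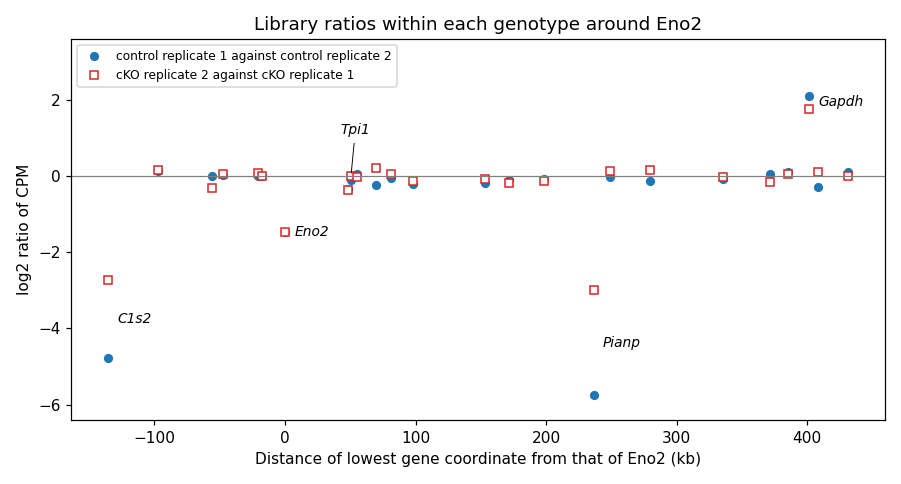
Log2 ratio of CPM between the 2 libraries of each genotype for genes around Eno2, against distance from Eno2 in kb. Circles compare control replicate 1 with control replicate 2, and squares cKO replicate 2 with cKO replicate 1. Eno2, C1s2 and Pianp lie low and Gapdh high in both genotypes, while the other genes, Tpi1 among them, lie near 0.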

How the data were processed

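The deposited data are a table made by the authors of unscaled read counts, whole numbers for each gene symbol, with a column for each of the 4 libraries. Per the submitters' processing notes, which give no role or order, the tools were HISAT2 2.2.1, StringTie 2.1.7, Trim Galore 0.6.7 and FastQC 0.11.9, and the build was mm10. The sources used here do not give the counting tool, its annotation, its use of strand or how it treated reads with several matches, so reads of overlapping or near-identical genes may be split. Gene positions and exon lengths come from GENCODE M21 on mm10. The length of a gene is the union of all its annotated exons, and levels and isozyme shares per exon length depend on it.

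Genes were kept by filterByExpr (minimum count 10) in edgeR 4.0.16 (R 4.3.3), scaled by TMM and tested over all 15522 kept genes with glmQLFit and glmQLFTest. Genotype was the only term. P-values were adjusted by Benjamini-Hochberg at a threshold of 0.05. CPM use TMM-scaled library sizes, except marker sums. Log2 fold changes are given ± standard error and group means ± SD of 2 libraries. The test was first run on simulated data with known fold changes. DESeq2 1.42.0, limma-voom (limma 3.58.1), other scalings, no filter, counts divided by 4, a replicate block and fits without each library were the alternatives.

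The members and lists were chosen with earlier results of these data known. All 39 could be named. Standard errors were given for called genes and the 4 smallest p-values per role, and of each further list called genes and up to 4 others were named, with Gapdh, Vegfa, Arnt and Hif3a. Egln2 and the isozyme shares were chosen after their values were seen. Near copies are transcripts with 95% identity over 200 bases or more. Samples were grouped by the genotype in their labels.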

Additional observations from a re-analysis of the deposited data

How the results depend on the processing

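The 9 genes called lower became 26 with DESeq2, 16 with limma-voom, 14 with counts divided by 4, and 0 with a replicate block. In that block 31 were lower at an unadjusted p under 0.05 by edgeR. Over all genes, DESeq2 called 642 of 14017 lower and limma-voom 227 of 15522. The fit on divided counts called 243 of 13810 lower, and the block called only 20 of 15522. Library sizes alone and DESeq2's size factors gave 8 and no filter 9, and no setting called any of the 39 higher. Of all genes, library sizes alone called 123 of 15522 lower, DESeq2's size factors 138 of 15522, and no filter 139 of 18481. Fits without 1 library gave 0 to 18. The enzyme median was -0.21 with library sizes alone and -0.31 to -0.21 over the fits without 1 library, and that of the other HIF targets -0.62 to -0.43. With library sizes alone the sign turned for Pfkm (0.0180) and Hif1a (0.0582). Over the fits without 1 library, the log2 fold change ran from -0.0989 to 0.00758 for Pfkm, from -0.0501 to 0.0355 for Hif1a and from -1.29 to 0.54 for Eno2. The cause was not tested. Deviations of same-numbered libraries correlated at -0.16, and the labels name no shared litter, batch or day, so the numbers were not taken to pair the libraries, which does not show that they share none. A block with the numbers crossed, chosen after seeing the data, called 16 of the 39 lower, and 341 of all 15522 genes. Library-size scaling raised log2 fold changes by 0.065 relative to TMM. Depth is lowest for Ankrd37, at 168 to 346 counts per library.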
